A study of Mus musculus with 6 samples.

Results

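The single Gpr97-deficient kidney taken after ischaemia/reperfusion injury was set beside the 2 wild-type kidneys taken after the same injury. These 3 samples were chosen by their labels alone out of 6 whole-kidney samples, each hybridised to one single-colour Agilent mouse array. The remaining 3 arrays held sham-operated kidneys, 2 wild-type and 1 Gpr97-deficient, and are used only beside a gene or list described for the injured kidneys. All 6 mice were labelled male. Strain, age, the design of the deleted allele, ischaemia time and time after reperfusion were not given in the sources used here. Each array is labelled as one kidney sample, and the tissue is whole kidney, so fewer cells of a type and less RNA per cell cannot be told apart. With 1 array on the deficient side there is no replicate for the genotype, no test across samples was run, and the number of arrays limits the precision of every value.

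Gpr97, whose gene symbol is Adgrg3, is an adhesion G protein-coupled receptor best known from granulocytes and other immune cells, and glucocorticoids are among the molecules described to bind it. Ischaemia followed by reperfusion kills or strips proximal tubule cells, brings in neutrophils and macrophages, and is followed by tubular dedifferentiation and repair. The series title links Gpr97 to Sema3A, a secreted semaphorin that signals through neuropilin-1 and A-type plexins. The comparison therefore asks how an injured kidney without the receptor differs from injured kidneys that have it, with the Sema3A pathway as the one the submitters name.

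Levels are log2 signals relative to the 75th percentile of their own array, so a level of 0 is a probe as bright as that percentile and 1 unit is a 2-fold difference. Of 27339 genes with a probe, 19820 were well above background on at least 1 of the 3 injured arrays. A gene was described as above or below both wild-type kidneys when the deficient array lay outside the pair, and its distance is how far past the nearer wild-type array it lay. Between 63.0% and 71.1% of probes were well above background on each of the 6 arrays, and no spot was saturated.

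The wild-type injured arrays differed from each other in ways that touch every result. Wild-type injured array 1 shared a slide with the deficient array, whereas wild-type injured array 2 was on the other slide, which was scanned at 3 rather than 5 micrometres per pixel. Although labelled male, wild-type injured array 1 carried Xist, the RNA of the inactive X chromosome, at 4.10, against at most -5.38 on the other arrays. The Y-linked genes Ddx3y, Uty, Kdm5d and Eif2s3y were not well above background on that array and were on all 5 others. A difference from array 1 therefore also spans this mismatch with the label, and a difference from array 2 spans the slide, and their part in the results was not tested. For that reason differences are given from each wild-type array separately.

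The 2 wild-type injured kidneys were further from each other than either was from the deficient one. They differed at least 2-fold in 3450 genes (17.4%), against 1796 (9.06%) between the deficient array and wild-type array 1 and 2800 (14.1%) between it and wild-type array 2. Across genes, which are not independent replicates, Pearson's r was 0.957 for the wild-type pair and 0.977 and 0.969 for the deficient array with arrays 1 and 2.

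The kidney and injury labels matched their markers. Kap, an abundant proximal tubule transcript, was at 7.93, 8.48 and 8.90 on wild-type injured arrays 1 and 2 and the deficient injured array. Havcr1, the tubular injury marker KIM-1, was at 2.12, 4.69 and 2.86 on the same arrays and at -3.38, -3.07 and -4.97 on the 2 wild-type and the deficient sham array. The 3 injured arrays lay above all 3 sham arrays for Havcr1, with the deficient kidney between the wild-type ones.

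Adgrg3 itself separated the genotypes. Its probe, at chr8:97568989-97569048 on the plus strand of mm9, read 0.24 and 0.05 on the wild-type sham arrays, 1.1 and 1.25 on the wild-type injured arrays, -5.34 on the deficient sham array and -5.71 on the deficient injured array. Both deficient arrays lay far below every wild-type array, and the last value was not well above background. The wild-type injured mean of 1.18 ± 0.11 (SD, n = 2) was at least 118-fold higher than the deficient injured level. A second Adgrg3 probe was dimmer, at -4.56 and -3.78 on the wild-type injured arrays and -7.71 on the deficient one.

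In all, 4619 genes (23.3% of those measured) lay above both wild-type injured arrays and 4651 (23.5%) below both. Only 167 genes (0.843%) lay at least 2-fold above the nearer array and 169 (0.853%) at least 2-fold below it. Of the 167, 67 were well above background on all 3 injured arrays and 75 on the deficient array only. Of the 169, 73 were well above background on all 3 and 96 on the wild-type arrays only. The line at 2-fold fell in a continuum: 29 genes lay up to 0.1 log2 units past it and 45 as far short of it on the upper side, and 40 and 42 on the lower side. The deficient injured array was the highest of all 6 for 135 of the 167 and the lowest of all 6 for 112 of the 169. Over all 19820 genes it was the highest for 2113 and the lowest for 2991. The choice of the 167 and 169 already placed it outside both wild-type injured arrays, so these counts add only the place relative to sham. Of the same 19820 genes, 251 (1.27%) in the deficient sham kidney lay at least 2-fold above both wild-type sham arrays and 162 (0.817%) at least 2-fold below.

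**Figure D1:**
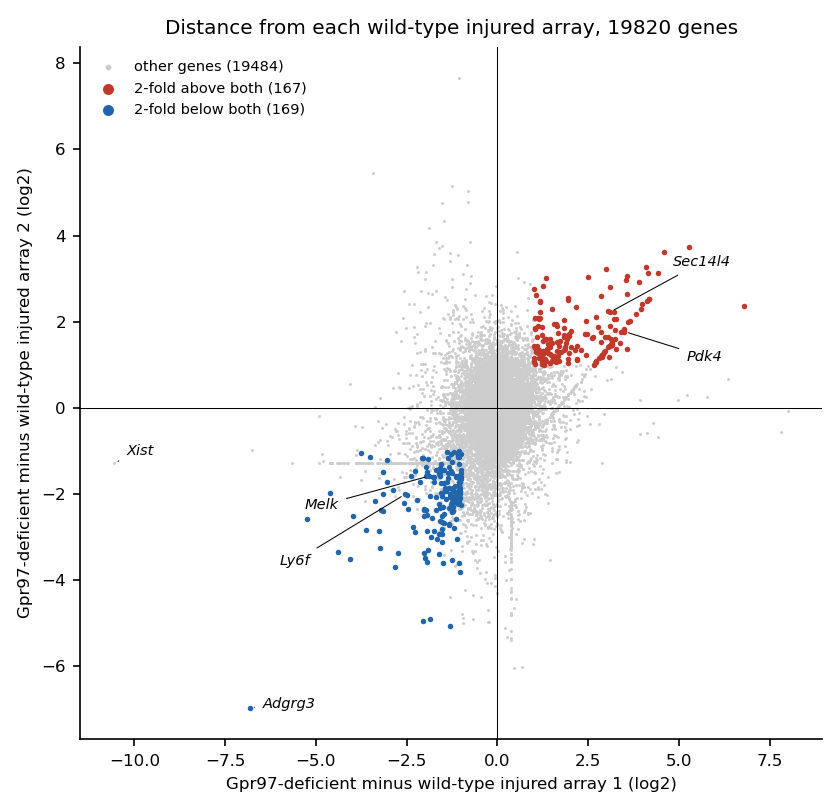
Log2 difference of the Gpr97-deficient injured array from wild-type injured array 1 (horizontal) and array 2 (vertical) for 19820 genes; red marks the 167 genes at least 2-fold above both, blue the 169 at least 2-fold below both. Adgrg3 sits alone at the lower left, Xist lies far left because only wild-type array 1 carried it, and the straight lines of points are genes held at the floor of an array.

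The genes furthest above both wild-type kidneys, among those well above background on all 3, included a neuropeptide, a chemokine and several metabolic enzymes. Grp, gastrin-releasing peptide, read -2.63 and -1.82 in the wild-type injured kidneys and 0.42 in the deficient one, 4.72-fold past the nearer. It was not well above background on any sham array. Tac4, a tachykinin precursor, read -4.63, -3.66 and -1.43 in the same order, and Tcf23, a basic helix-loop-helix factor, read -3.16, -3.33 and -0.98. Ccl17, a chemokine that draws T cells through CCR4, read -3.42 and -3.63 in the wild-type kidneys and -1.58 in the deficient one, and was also higher in the deficient sham kidney, at -2.97 against -3.96 and -4.45. Pdk4, the kinase that shuts off pyruvate dehydrogenase, read 0.58, 2.31 and 4.08, so that the deficient kidney lay 3.41-fold past the nearer wild-type one although those 2 were themselves 1.73 apart. The sham values of Pdk4 were -0.65 and -0.44 in wild-type and 1.02 in deficient kidney.

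Cyp7b1, Apoh and Fmo5 were lower in the wild-type injured than in the wild-type sham kidneys, and the deficient injured kidney lay nearer to sham. Cyp7b1, an oxysterol and steroid hydroxylase, was at 4.04 and 5.28 in wild-type sham kidneys, at -0.50 and 1.03 in wild-type injured kidneys and at 2.64 in the deficient injured kidney. Apoh, a plasma lipid-binding glycoprotein, was at 1.27 and 0.58 in wild-type sham, -2.31 and -1.30 in wild-type injured and 0.33 in deficient injured kidney. Fmo5, a flavin-containing monooxygenase, was at 0.42 and 1.86, then -1.59 and -1.22, and 0.30. In each of the 3 genes the deficient sham kidney was at or below the lower wild-type sham kidney, at 1.70, -0.58 and 0.41.

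The remaining members of the top 15 lay between 1.66 and 2.23 log2 units past the nearer array, apart from Depp1. They were Sec14l4, Lhcgr, the luteinising hormone receptor, Glycam1, an endothelial ligand of L-selectin, Col13a1, a transmembrane collagen, and the X-linked Xlr3c and Xlr4b, which belong to a family of near-identical copies whose probes can share signal. Depp1, a FOXO target, was at -1.03 and -1.43 in wild-type injured and 0.52 in deficient injured kidney, and it was likewise higher in the deficient sham kidney, at 1.07 against -0.49 and -1.37. Lhcgr and Glycam1 lost their direction under another background correction, with differences of -0.09 and -0.23 there.

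**Figure D2:**
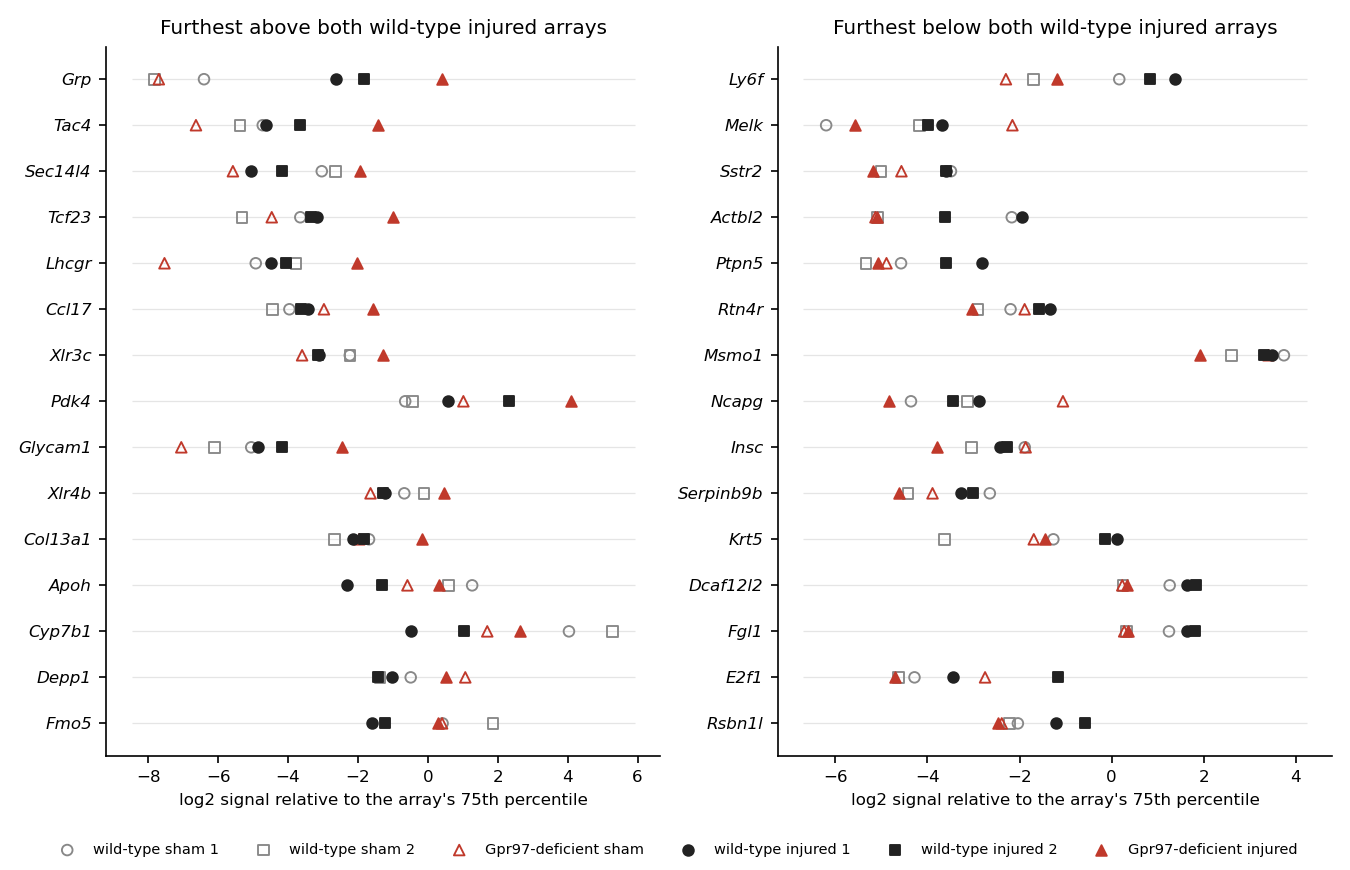
Log2 signal relative to each array's 75th percentile on all 6 arrays for the 15 genes furthest above (left) and the 15 furthest below (right) both wild-type injured arrays; filled symbols are injured, open symbols sham, triangles Gpr97-deficient, and values not well above background are drawn as measured. The filled triangle stands apart from both filled black symbols in every row, as the choice of genes requires, while its place relative to the sham kidneys varies from Cyp7b1, below wild-type sham, to Grp, far above it.

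The 15 genes furthest below both wild-type kidneys, among those well above background on all 3, included 1 of the sterol list, Msmo1, described with that list. Ly6f, of the Ly6 family, read 1.37 and 0.83 in the wild-type injured kidneys and -1.18 in the deficient one. Its sham values were 0.17 and -1.70 in wild-type kidney and -2.30 in the deficient one. In sham, 27.8% of all genes lay below both wild-type arrays. Krt5, a basal-cell keratin, read 0.12, -0.14 and -1.44. Sstr2, a somatostatin receptor, read -3.60, -3.61 and -5.19, and Rtn4r, the Nogo receptor, -1.34, -1.58 and -3.03. Melk and Ncapg, a mitotic kinase and a condensin subunit, read -3.70, -3.99 and -5.57 and -2.87, -3.45 and -4.83. E2f1, described with the cell cycle genes, and Rsbn1l, at -1.20, -0.57 and -2.46, completed the 15, and the mean over the probes of Rsbn1l was 0.03 above the wild-type mean. Actbl2, Ptpn5, Insc and Serpinb9b lay between -1.48 and -1.35 past the nearer array. The probes named Dcaf12l2 and Fgl1 gave nearly the same value on every array, for example 0.34 and 0.35 on the deficient injured array, while other probes of both genes were dimmer, so the identity of their signal is uncertain.

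Genes that were well above background only on one side have bounds rather than levels. On the deficient array alone, Vmn1r54, a vomeronasal receptor, read -1.90, and Klrb1b, an inhibitory NK cell receptor, read -2.21; their bounds were at least 9.72-fold and 7.83-fold past the nearer wild-type array. Both were also well above background on the deficient sham array, at -4.19 and -4.37, and not on either wild-type sham array. The other 4, Olfr1008, Olfr1006, Lrrc63 and Npc1l1, read between -3.00 and -2.65 and all turned to between -0.49 and -0.13 under another background correction. On the wild-type arrays alone, besides Adgrg3, were Krtap19-5 at -2.40 and -2.95, Actrt2 at -2.45 and -3.23, Tas2r102 at -3.65 and -2.77, Myf6 at -1.21 and -3.87 and Syt8 at -1.28 and -3.91. Olfactory, vomeronasal and keratin-associated genes belong to multigene families, so these dim signals are uncertain as to gene.

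Sterol synthesis was the gene list with the largest share below both wild-type kidneys. Cells make cholesterol from acetyl-CoA through the mevalonate and post-squalene enzymes and control the pathway through SREBP-2, which Insig1 retains when sterol is plentiful. All 18 genes of the list were measured on the injured arrays. In the deficient kidney 13 of 18 lay below both wild-type kidneys and 0 above, beside 23.5% and 23.3% of all genes measured, and 2 lay at least 2-fold below. The median of the list was -0.96 against wild-type array 1, on the same slide, and -0.48 against array 2, where the medians over all genes were -0.02 and -0.05. For 12 of the 18 genes the deficient injured kidney was the lowest of all 6 arrays, as it was for 2991 of all 19820 genes. The same list in the sham kidneys had 6 genes above and 4 below both wild-type arrays, where 29.5% and 27.8% of all genes lay, and a median of 0.09.

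The regulators and the later enzymes were the lower members. Insig1 read -0.71, -2.48 and -3.29, and Srebf2, which encodes SREBP-2, read -0.56, -0.63 and -1.07. Hmgcs1, Mvk, Pmvk and Mvd, early enzymes of the mevalonate pathway, lay between the wild-type arrays, as did the sterol carrier Stard4. Idi1, the isopentenyl diphosphate isomerase, read 2.13, 1.93 and 0.76, and a second, dimmer Idi1 probe read -1.66, -1.96 and -2.69. Msmo1, the methylsterol monooxygenase, read 3.48, 3.32 and 1.91, 2.64-fold past the nearer array. Fdps, Fdft1, Sqle, Lss, Cyp51, Dhcr7, Sc5d, Nsdhl and Hsd17b7 all lay below both, by 0.22 to 0.66 log2 units.

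**Figure D3:**
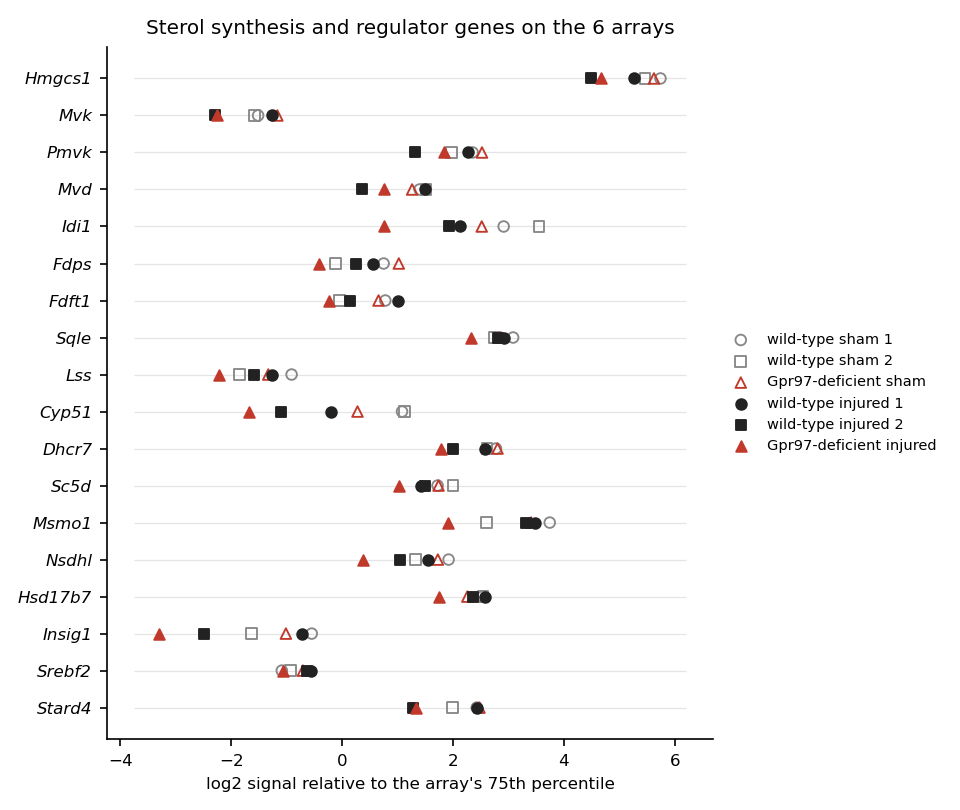
Log2 signal relative to each array's 75th percentile for 18 sterol synthesis and regulator genes on the 6 arrays, in pathway order from the top; filled symbols are injured, open symbols sham, triangles Gpr97-deficient. The filled triangle lies left of both filled black symbols in 13 of the 18 rows, by most in Msmo1 and Idi1, and the open triangle does not stand apart from the other open symbols in the same way.

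Promoter sequence of these genes is shown because members of one transcriptional programme were lower together. RefSeq windows of GRCm38.p6, 250 bases up to the annotated start, were held for 14 of the 18 genes. A classical sterol regulatory element, searched as TCACNCCAC on both strands, was found in 1 of the 14, Hmgcs1, and in 154 of 12435 measured genes with a window (1.24%). The CCAAT box that binds NF-Y, a usual partner of SREBP-2, was searched as CCAAT on both strands and was found in at least one window of all 14 and in 39.8% of the measured genes. Both searches were made with the values known, and a match is a description of the window, not of binding. The windows of Msmo1 (chr8:64733579-64733828, minus strand), Idi1 (chr13:8885356-8885605, plus strand) and Hmgcs1 (chr13:119690101-119690350, plus strand) are printed 5′ to 3′, with matches in capitals.
Msmo1: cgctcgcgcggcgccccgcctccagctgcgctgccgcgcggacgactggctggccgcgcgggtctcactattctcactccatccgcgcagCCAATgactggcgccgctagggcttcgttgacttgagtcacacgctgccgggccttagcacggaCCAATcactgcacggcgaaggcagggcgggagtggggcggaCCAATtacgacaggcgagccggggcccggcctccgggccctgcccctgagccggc
Idi1: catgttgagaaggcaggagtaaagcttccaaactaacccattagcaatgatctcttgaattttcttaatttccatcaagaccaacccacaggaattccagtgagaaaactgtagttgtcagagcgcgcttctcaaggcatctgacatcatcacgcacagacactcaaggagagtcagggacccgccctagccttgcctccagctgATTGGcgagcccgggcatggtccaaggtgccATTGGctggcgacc
Hmgcs1: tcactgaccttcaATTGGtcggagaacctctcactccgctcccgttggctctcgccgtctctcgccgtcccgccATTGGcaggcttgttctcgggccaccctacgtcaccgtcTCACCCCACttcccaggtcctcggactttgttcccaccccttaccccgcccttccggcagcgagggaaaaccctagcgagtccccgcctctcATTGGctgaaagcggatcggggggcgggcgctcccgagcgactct
Msmo1 and Idi1, the lowest members with a window, held 3 and 2 CCAAT boxes and no sterol element by these letters, and Hmgcs1, which held both, lay between the wild-type arrays.

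Endothelial genes were higher in the deficient injured kidney. Of 18 markers measured, 17 lay above both wild-type injured arrays and 0 below, beside 23.3% and 23.5% of all genes, and none reached 2-fold. The median was 0.53 against array 1 and 0.50 against array 2. Robo4, a vascular guidance receptor, read 2.60 and 2.74 in the wild-type and 3.28 in the deficient injured kidney. Tie1, an endothelial receptor kinase, read -0.14, -0.19 and 0.38, Flt1, a VEGF receptor, read 3.67, 3.91 and 4.41, and Plvap, a diaphragm protein of fenestrated capillaries, read 4.30, 4.38 and 4.87. Kdr, the main VEGF receptor, was the exception, at 1.54, 2.01 and 1.90. In the sham kidneys the list had 12 above and 0 below, beside 29.5% and 27.8% of all genes. The median difference from the wild-type mean was 0.25 in sham, against 0.52 after injury. The signal summed over the 18 markers was 78.3 and 84.1 times the array's 75th percentile in the wild-type injured kidneys, 116 in the deficient one and 80.9 to 94.5 in the 3 sham kidneys.

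Macrophage and monocyte genes were also mostly higher, by amounts that depended on the gene. Of 22 measured, 17 lay above both wild-type injured kidneys and 0 below, beside 23.3% and 23.5% of all genes, and none reached 2-fold. The medians were 0.42 and 0.75 against arrays 1 and 2. Under another background correction 11 lay outside. Cd163, a haemoglobin scavenger receptor, read -4.55, -4.16 and -3.33, and Mrc1, the mannose receptor, -2.83, -2.77 and -1.97. Trem2, a lipid-sensing receptor, read -0.56, -1.66 and -0.17. The complement subunits C1qa, C1qb and C1qc, which tissue macrophages make, were above both wild-type kidneys by 0.43, 0.24 and 0.03. Cd14, Csf1r and Cx3cr1 lay between the wild-type arrays. A difference of the same sign was present in sham, with a median of 0.62 and 13 genes above both wild-type sham arrays against 1 below. The sham shares of all genes were 29.5% above and 27.8% below. Spp1, osteopontin, which is also in the tubular injury list, carried most of the list's summed signal, 382 of 407 and 416 of 443.5 in the wild-type injured kidneys and 423 of 461 in the deficient one. Without Spp1 the sum was 25.3 and 27.7 in the wild-type injured, 37.97 in the deficient injured and 16.5 to 28.6 in the sham kidneys.

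**Figure D4:**
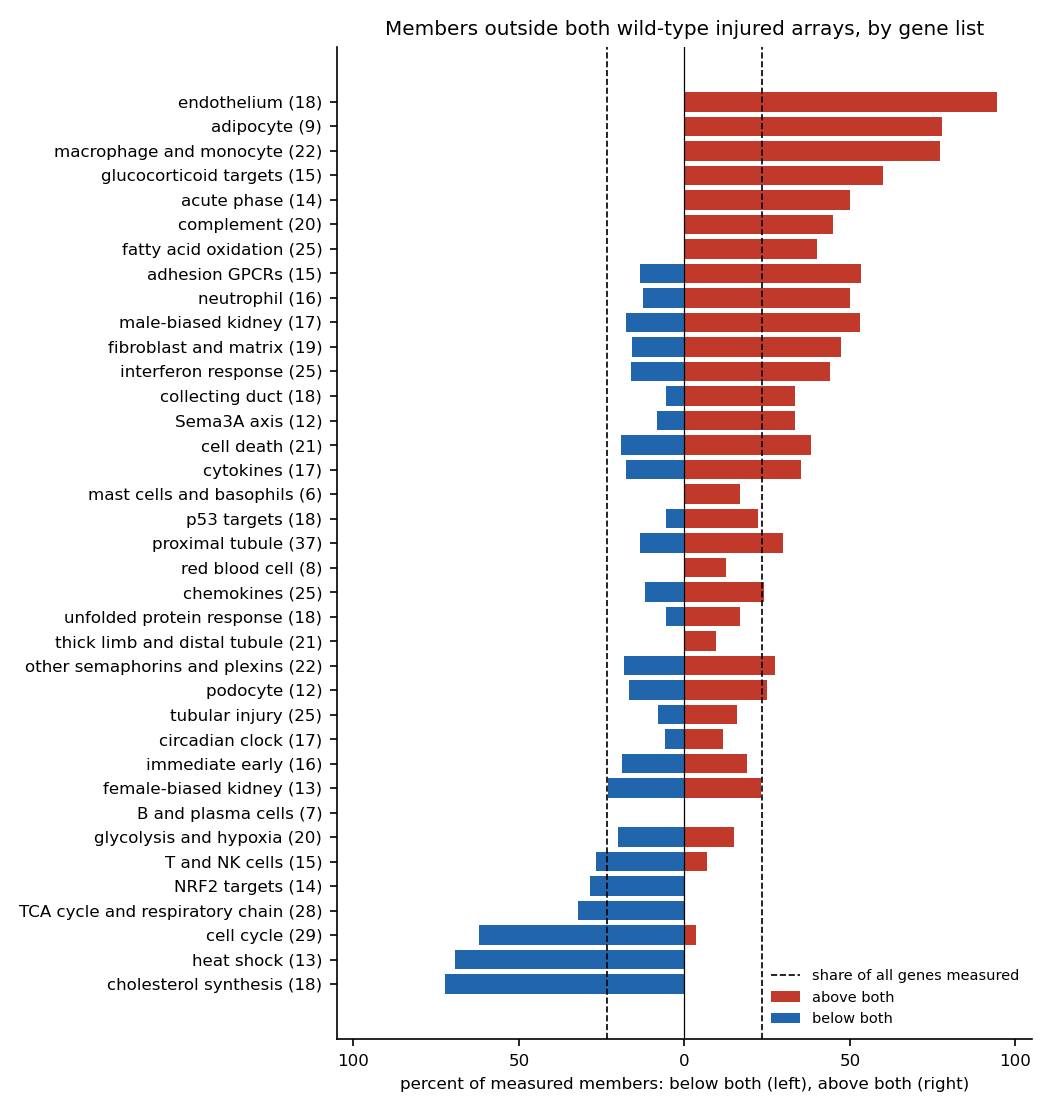
Percent of the measured members of each of 37 gene lists lying above both (red, right) or below both (blue, left) wild-type injured arrays, with the number of measured members in brackets; dashed lines mark the shares over all genes measured, 23.3% and 23.5%. Endothelial, adipocyte, macrophage and glucocorticoid lists reach furthest right and cholesterol synthesis, heat shock and cell cycle lists furthest left.

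Neutrophil genes gave a different picture. Of 16 measured, 8 lay above both wild-type injured kidneys and 2 below, beside 23.3% and 23.5% of all genes. The median, however, was 0.03 against array 1 and 0.76 against array 2. S100a8, a granulocyte alarmin, read 2.67, 1.29 and 2.37, with the deficient kidney between the wild-type ones. Clec4d, a C-type lectin of myeloid cells, read -1.74, -1.47 and -0.61, and Il1r2, the decoy interleukin-1 receptor, read -3.29, -3.44 and -2.16; Il1r2 turned to -0.29 under another background correction. The deficient sham kidney had far higher neutrophil transcripts than the wild-type sham kidneys, with a list median of 2.38 and S100a8 at 3.61 against -0.70 and -1.19. T and NK cell genes had 1 of 15 above and 4 (26.7%, near the share of all genes) below both, and Ncr1, the NKp46 receptor, was well above background on both wild-type injured arrays, at -4.63 and -3.88, and not on the deficient one; of the sham arrays, wild-type array 1 alone was well above background, at -3.65.

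Glucocorticoid-induced genes had 9 of 15 members above both wild-type injured kidneys and 0 below, beside 23.3% and 23.5% of all genes. The medians were 0.83 and 0.90 against arrays 1 and 2. Pdk4 and Fkbp5 passed 2-fold. Fkbp5, the receptor's co-chaperone, read 0.50, -0.32 and 1.54. Klf9, a zinc-finger factor, read 1.68, 1.27 and 2.30, and Dusp1, a MAP kinase phosphatase, 0.88, 0.65 and 1.46. Tsc22d3, which encodes GILZ, and Per1, a clock gene, lay between the wild-type arrays, at 2.14 and 1.26. Wild-type array 2 was much lower for both, at 0.03 and -0.36. In sham kidney the list had 10 above and 0 below, beside 29.5% and 27.8% of all genes, and a median of 0.63.

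Genes of lipid burning, many of them controlled by the fasting factor PPAR-alpha, lay above the wild-type kidneys or between them. Of 25 fatty acid oxidation genes 10 lay above both wild-type injured kidneys and 0 below, beside 23.3% and 23.5% of all genes. The medians were 0.02 and 0.48. Acot1, an acyl-CoA thioesterase, read 4.17, 4.60 and 5.46, and Angptl4, a lipase inhibitor, 3.89, 5.43 and 6.33. TCA cycle and respiratory chain genes lay below both in 9 of 28 cases (32.1%, beside 23.5% of all genes) and above both in 0, by small amounts: Idh3a and Fh1 lay 0.24 and 0.23 below the nearer array, and the list median was -0.35 against array 1 and 0.10 against array 2. In sham kidney 21 of the 28 lay above both wild-type arrays and 1 below, beside 29.5% and 27.8% of all genes. The sham median was 0.19.

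Adipocyte genes had 7 of 9 measured members above both and 0 below, beside 23.3% and 23.5% of all genes. Under another background correction 3 lay outside and the median difference from the wild-type mean turned from 0.99 to -0.11. The defining adipocyte markers Adipoq and Lep were not well above background on any injured array. Fabp4, a fatty acid carrier of fat cells, endothelium and macrophages, read 3.73, 3.66 and 4.99, and its sham values were all between 3.68 and 3.73. Lpl, lipoprotein lipase, read 3.14, 3.09 and 3.64. Plin1, a lipid droplet coat protein, was well above background only on the deficient injured array, at -3.70, and turned to -0.69 under another background correction. The list's summed signal was 27.3, 24.0 and 49.97 in the injured kidneys and 37.0 to 59.3 in the sham kidneys. On the injured arrays Fabp4 was the brightest member and carried much of that sum, so the sum does not describe the list as a whole. Whether perirenal fat contributed was not tested.

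Cell cycle genes were lower in the deficient injured kidney and higher in the deficient sham kidney. Of 29 measured, 18 lay below both wild-type injured kidneys and 1, Nusap1, above, beside 23.5% and 23.3% of all genes. The medians were -0.86 and -0.74. In sham, 27 lay above both and 1 below, beside 29.5% and 27.8% of all genes, with a median of 2.10. Mki67, the Ki-67 antigen, read -1.09 and -1.50 in the wild-type injured kidneys and -2.39 in the deficient one, and -2.47, -0.52 and 1.43 in the sham kidneys. E2f1, a transcription factor of S-phase entry, read -3.45, -1.17 and -4.71, and Aurkb, a mitotic kinase, read -4.47, -3.62 and a bound below background. A second E2f1 probe read -4.01, -4.55 and -4.68. It was not well above background on wild-type injured array 2, so that probe does not place the deficient kidney below both. Pcna, the replication clamp, lay between the wild-type arrays, at 2.49, 3.03 and 2.52. Most members of the list were dim, and the deficient sham kidney, where they were brightest, also held the higher neutrophil and red blood cell transcripts. Whether these are connected was not tested.

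**Figure D5:**
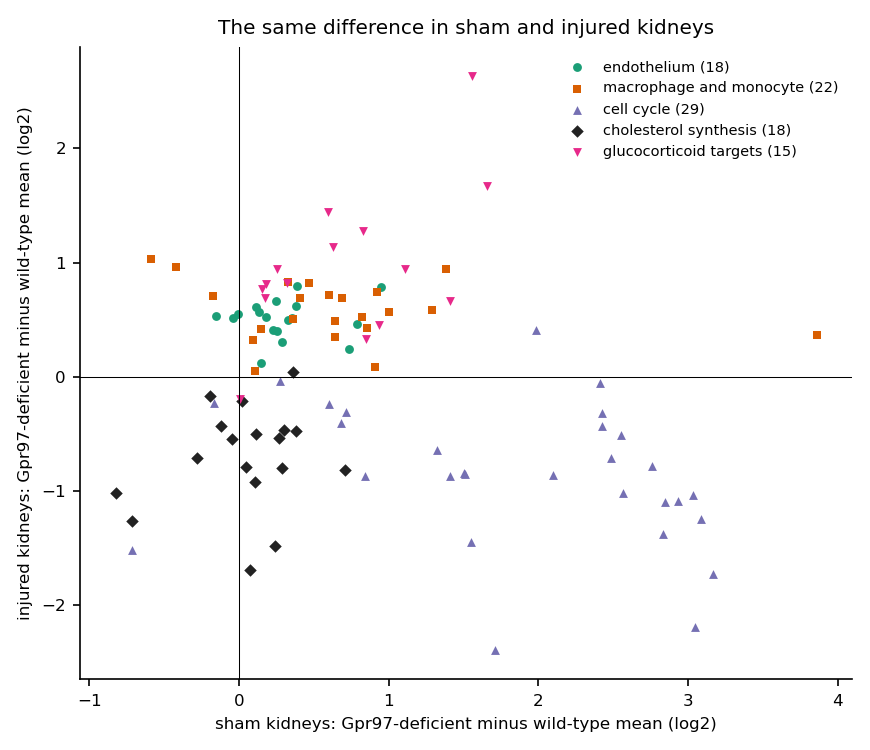
For each measured member of 5 gene lists, the log2 difference of the Gpr97-deficient kidney from the wild-type mean in sham kidneys (horizontal) and injured kidneys (vertical), with 1 deficient and 2 wild-type arrays on each axis. Cell cycle genes lie at the lower right (list medians 2.10 in sham and -0.85 in injured kidney), cholesterol genes lie low around a sham median of 0.09, and most endothelial, macrophage and glucocorticoid genes lie in the upper right.

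Stress and acute phase genes split. Of 13 heat shock genes 9 lay below both wild-type injured kidneys and 0 above, beside 23.5% and 23.3% of all genes. All 9 distances were small. Hspe1 and Hspd1, the paired mitochondrial chaperonins, lay 0.51 and 0.32 below the nearer array, Hspe1 at 5.08, 5.07 and 4.55. In sham kidney 10 of the 13 heat shock genes were below both as well, beside 27.8% of all genes. The sham median was -0.32, against medians of -0.16 and -0.36 after injury. Of 14 NRF2 targets 4 were below both, a share of 28.6% near the 23.5% of all genes, and 0 above. Those furthest below were the glutathione transferases Gsta1, at 5.79, 6.35 and 4.89, and Gsta2, at 4.99, 5.97 and 4.22, although the list's medians had opposite signs, 0.16 and -0.69. Of 14 acute phase genes 7 were above both, beside 23.3% of all genes, and 0 below. Lbp, which carries bacterial lipopolysaccharide, read -1.73, -1.48 and -0.44. The fibrinogen chains Fga, Fgb and Fgg lay between the wild-type arrays, and array 2 was the highest for all 3.

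The complement, matrix, interferon and p53 counts are set beside the 23.3% of all genes above and 23.5% below both wild-type injured kidneys. Complement genes had 9 of 20 above both and 0 below. Serping1, the C1 inhibitor, read 1.36, 0.93 and 1.99, and C7, of the membrane attack complex, -2.62, -3.13 and -1.73. C3ar1, the receptor of the C3a fragment, was 1.13 past the nearer array but turned to -0.96 under another background correction. Of 19 fibroblast and matrix genes 9 were above both and 3 below, with Postn, periostin, at -2.29, -2.30 and -1.08. Of 25 interferon-response genes 11 were above both and 4 below, none by 2-fold. The p53 targets Bbc3 and Fas read -0.62, -0.56 and 0.21 and -0.41, -0.35 and 0.34. A second, dimmer Fas probe read -4.17, -3.31 and -3.42, with the deficient kidney between the wild-type ones. The p53 target list as a whole had 4 of 18 above, 22.2% and near the share of all genes, and 1 below.

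Markers of tubular injury and tubular identity did not set the deficient kidney apart. Their counts are set beside the 23.3% of all genes above and 23.5% below both wild-type injured kidneys. Of 25 injury genes 4 lay above both wild-type kidneys and 2 below, and the median was 0.30 against array 1 and -0.70 against array 2, so the deficient kidney sat between them. Krt20, an epithelial keratin, read 4.31, 5.66 and 4.44, Timp1, a metalloproteinase inhibitor, 2.63, 4.09 and 2.64, and Clu, clusterin, 6.25, 7.30 and 6.28. Sprr1a, a small proline-rich protein, was below both, at 2.99, 4.53 and 2.02. Lcn2, which encodes NGAL, read 3.40, 5.45 and 5.56. Of 37 proximal tubule genes 11 were above and 5 below, with medians of -0.32 and 0.38. Thick limb and distal tubule genes had 2 of 21 above and 0 below, collecting duct genes 6 of 18 above and 1 below and podocyte genes 3 of 12 above and 2 below.

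The wild-type injured arrays differed most in red blood cell, B and plasma cell, circadian clock and male-biased kidney genes, with list medians of array 1 minus array 2 of 3.61, 2.11, 1.58 and -1.52. Male-biased kidney genes had medians of 1.47 against array 1 and 0.18 against array 2. Acsm3, an acyl-CoA synthetase more abundant in male mouse kidney, read -1.98 on array 1, 3.56 on array 2 and 3.80 on the deficient array. Cyp2e1 read 1.22, 2.74 and 3.72, above both. Red blood cell genes had medians of -1.02 and 2.58, and their summed signal was 164, 10.4 and 83.5 on the 3 injured arrays.

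Counts for the remaining lists are set beside the 23.3% of all genes above and 23.5% below both wild-type injured kidneys. Cytokines had 6 of 17 above and 3 below, with Il11, of the interleukin-6 family, at -1.28, 1.08 and -2.25. Chemokines had 6 of 25 above and 3 below. Immediate early genes had 3 of 16 above and 3 below, with Dusp1 the furthest above and Nr4a1, an orphan nuclear receptor, 0.43 below the nearer array. Cell death genes had 8 of 21 above and 4 below, the unfolded protein response 3 of 18 and 1, glycolysis and hypoxia 3 of 20 and 4, and the circadian clock 2 of 17 and 1. Female-biased kidney genes had 3 of 13 above and 3 below, and mast cell and basophil genes 1 of 6 above and 0 below. None of 7 measured B and plasma cell genes lay outside the wild-type pair.

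The Sema3A pathway showed no gene at 2-fold from both wild-type kidneys. Of 12 members measured, 4 lay above both and 1 below, beside 23.3% and 23.5% of all genes, with medians of 0.06 and 0.08. Sema3a, the ligand, was dim: its brightest RefSeq probe read -3.05 on wild-type injured array 2 and -4.30 on the deficient array, was not well above background on wild-type injured array 1, and read -2.86, -3.90 and -4.16 on the sham arrays. The deficient injured kidney therefore lay between the wild-type injured kidneys on this probe. Of 3 further Sema3a probes, none was well above background on the deficient injured array, and one read -1.84 on wild-type injured array 1 alone. No direction is therefore given for Sema3a.

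The co-receptors were the members that stood apart. Nrp1, neuropilin-1, read -0.03 and -0.26 in the wild-type injured kidneys and 0.53 in the deficient one, 1.47-fold past the nearer, with sham values of -0.53, -0.24 and, in the deficient kidney, -0.22. Nrp2 read 1.1, 1.57 and 1.96. Endothelial cells carry both neuropilins, and the endothelial markers were higher by a like amount; their part in these values was not tested. The signalling receptors Plxna2, Plxna3, Plxna4 and Plxnd1 lay between the wild-type arrays, and Plxna1 lay 0.04 below them. Among other semaphorins and plexins 6 of 22 were above both and 4 below, beside 23.3% and 23.5% of all genes. Sema3f read -0.68, -0.27 and 0.20 and Sema3g 2.29, 2.34 and 2.72.

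Adgrg3 belongs to a receptor family with several renal members. Of 15 adhesion G protein-coupled receptors measured, 8 lay above both wild-type injured kidneys and 2, Adgrg3 and Adgra3, below. The shares of all genes were 23.3% and 23.5%. Adgrg2 read -2.22, -1.81 and -0.77, and was the one relative past 2-fold. Adgrg1, which neighbours Adgrg3, lay between the wild-type arrays at 5.01, and Adgrg5, the other neighbour, was not well above background on any injured array. Within 500 kb of the Adgrg3 probe, 27 other genes were measured. Of these, 6 lay above both wild-type injured arrays and 6 below, near the 23.3% and 23.5% of all genes. Only Ccl17, above both, passed 2-fold, and the median difference from the wild-type mean was -0.08.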

How the data were processed

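Total RNA of 6 mouse kidneys was labelled with Cy3 and hybridised to one-colour Agilent arrays. The deposited scanner files hold processed intensity values that the authors' Feature Extraction software (versions 10.7.1.1 and 10.7.3.1, per the file headers) had background-subtracted, with flags for background, saturation and outliers, and probe positions on mm9. The authors also deposited a table of log2 values with medians between 6.07 and 6.09 and, apparently, quantile normalized; limma, with no version, is listed in the submitters' processing notes. It was used as an alternative only, since each of its columns ranked with its own array (Spearman's rho at least 0.999975, against at most 0.978 with another array).

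Outlier and control spots were left out, spots of a probe were averaged as log2, and each array's 75th percentile was subtracted. Of 41174 probes, 27761 were named through RefSeq accessions, 5991 through symbols and 7422 kept the file's name. One probe stood for a gene, RefSeq probes first and then the brightest. A value not well above background gave only a bound. It was raised to the array's lowest well-above-background signal where it lay under that signal, and was otherwise kept as measured. The word "above" required the deficient array, and "below" both wild-type arrays, to be well above background. Where a member is called measured, it passed on at least 1 injured array: of 689 list genes 634 did, 47 did not and 8 had no probe of that name. Slides were read from the file headers.

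The comparison and the 37 gene lists were chosen with earlier results of these data known. Genes were named by rule: Adgrg3, the Sema3A list and neighbours, the 15 largest distances in each direction, the 6 largest on one side of background, and in each list up to 4 genes past 2-fold or else the 2 furthest outside; further list members are named as examples chosen after their values were seen. Some genes are not reported here and were left out of the lists and of the naming rule. Functions were tested on simulated data. No test across samples was run. Alternatives were quantile normalization, normexp background correction (offset 50, limma 3.58.1), the deposited values, other filters, the mean over probes, other fold limits, the slide as a block, and leaving out either wild-type array. R 4.3.3, Python 3.11.15, pandas 2.3.3 and numpy 2.4.6 were used.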

Additional observations from a re-analysis of the deposited data

Results flagged for a closer look

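For 8 named genes the deficient kidney lay outside both wild-type kidneys in opposite directions in sham and injured tissue, as did the median of 1 gene list; these contrasts rest on 1 deficient array per surgery and were not tested. The values are the injured difference minus the sham difference, each from the wild-type mean, in log2 units. Higher after injury and lower in sham were Sec14l4 (5.41), Cyp7b1 (5.32), Apoh (3.65) and Xlr3c (3.21). Lower after injury and higher in sham were Krtap19-5 (-5.05), Ncapg (-4.36), Melk (-4.32) and E2f1 (-4.11). The cell cycle list as a whole gave -2.95. Of its 29 genes, 27 lay above both wild-type kidneys in sham, beside 29.5% of all genes. After injury 18 lay below both, beside 23.5% of all genes.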

How the results depend on the processing

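The counts at 2-fold moved with the handling of dim probes and with the choice of wild-type array; of these settings the cause was not tested beyond what each one does by construction. The 167 genes above became 41 with normexp, 67 when all 3 injured arrays had to be well above background, 263 with no filter and 399 with the slide as a block, and 481 and 30 at 1.5-fold and 4-fold. The 169 genes below became 108 with quantile normalization, 94 with normexp, 81 with the deposited values, 73 and 1386 with the stricter and no filter, and 440 and 26 at 1.5-fold and 4-fold. Against a single wild-type array they were 636 to 1016 above and 1128 to 1379 below. The Adgrg3 difference of -6.89 was -6.53 with quantile normalization, -4.29 with normexp, -6.34 with the deposited values and -4.96 over the mean of its probes. Under normexp 11 of 22 macrophage genes and 3 of 9 adipocyte genes lay outside both arrays; acute phase genes outside were 11 with the slide as a block and 9 to 12 without one wild-type array. The counts for cholesterol synthesis, endothelium, cell cycle and glucocorticoid targets stayed within 1.5 times under every setting run. Leaving out a wild-type array leaves no pair to lie between. Those settings could hardly lower a count, and list size capped its rise, so they say little about stability. Normexp also moved the median of all genes from -0.03 to -0.28, and the following turned below 0 under it: the adipocyte median (-0.11), Lhcgr (-0.085), Glycam1 (-0.23), Olfr1008 (-0.19), Lrrc63 (-0.13), Olfr1006 (-0.27), Npc1l1 (-0.49), Il1r2 (-0.29), Plin1 (-0.69) and C3ar1 (-0.96). Over the mean of its probes Rsbn1l turned to 0.028. Of 37 list medians 24 kept their sign under normexp, 26 without wild-type injured replicate 2, 28 with the slide as a block, 29 without wild-type injured replicate 1 and 33 to 36 under the other settings run. No paired analysis was possible because the labels give the kidneys no shared replicate numbers.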

Other observations

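Of the 336 genes at least 2-fold outside both wild-type injured arrays, 27 were also at least 2-fold outside both wild-type sham arrays in the same direction, 16 higher and 11 lower in the deficient kidneys, and 18 were so in the opposite direction. Over all 19820 genes, 251 (1.27%) lay at least 2-fold above and 162 (0.817%) at least 2-fold below both wild-type sham arrays. The 16 included Pdk4, Depp1, the integrin subunits Itgb3 and Itga10, F13a1, which encodes the coagulation factor XIII A chain of macrophages and platelets, and Chrdl2, a BMP antagonist. Itgb3 read -1.16 and -0.75 in wild-type injured, 0.35 in deficient injured, -1.97 and -2.51 in wild-type sham and -0.95 in deficient sham kidney. F13a1 read -1.61, -2.41 and -0.57 in the injured and -5.05, -4.43 and -2.47 in the sham kidneys.

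Of the 27, 5 had their probe on chromosome 8, where Adgrg3 lies and where 4.90% of the measured genes were. Besides Adgrg3 these were Ocel1, Arrdc2, AK053597 and TC1772235, the last 2 named only by an accession. Ocel1 read 1.58 and 1.58 in wild-type injured and 2.95 in deficient injured kidney, and 1.43 in the higher wild-type and 3.30 in the deficient sham kidney. Arrdc2, an arrestin-domain protein, read -1.76, -3.32 and -0.48 after injury and -2.51, -2.02 and -0.58 in sham. On mm9 the probes of TC1772235, Arrdc2 and Ocel1 start at chr8:72147790, chr8:73359448 and chr8:73896648, near one another and more than 20 Mb from that of Adgrg3. The AK053597 probe starts at chr8:85698479, nearer to Adgrg3 at chr8:97568989. Any part of chromosomal position in these values was not tested.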
